A study of Mus musculus with 24 samples.

Results

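The effect of the hormone hCG on granulosa cells differed between 4 h and 12 h of culture for 2174 of 15405 genes, and the difference between its effects at these times is described here across all genes. Granulosa cells, which surround the oocyte and make ovarian steroids, came from 23-day-old C57BL/6 mice 48 h after PMSG, a hormone that makes follicles grow. Each culture pooled the cells of 2 mice, which were transfected for 3 h with a negative control siRNA (siNC), then kept in plain medium (control) or given human chorionic gonadotropin (hCG) for 4 h or 12 h. Of 24 mRNA libraries, the 16 siNC libraries form the comparison, 4 in each of control 4 h, hCG 4 h, control 12 h and hCG 12 h. The other 8, with hCG and an siRNA against Nts (siNTS) at both times, entered the same fit, where they share the scaling, the label block and the estimate of spread and so can move a fitted difference: without them 675 genes were positive and 535 negative. They also give the change with hCG from 4 h to 12 h in siNTS cells. The 4 siNC groups share PMSG priming, culture outside the follicle and siNC transfection.

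Each group holds 1 library with each of the labels A_1, A_2, B_2 and B_3, and the sample titles tie a label to a culture date. There are 3 dates, since A_2 and B_2 share one, and the labels do not say whether these were separate pools of cells. The p-values therefore measure the spread between these libraries, which may be partly technical.

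As background, hCG acts on the luteinizing hormone receptor, LHCGR, which raises cAMP in granulosa cells. cAMP switches on immediate early genes and EGF-like ligands, and these ligands act on EGF receptors to turn on the ERK kinases. Over the following hours the cells leave the follicular programme, in which they make estradiol, and luteinize: they take up and make cholesterol and turn it into progesterone.

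The quantity tested was the log2 fold change with hCG at 12 h minus that at 4 h, called the difference below. A positive difference means that the hCG effect was higher, or less negative, at 12 h. Levels are CPM, counts scaled to library totals by TMM, and are given for the labels A_1, A_2, B_2 and B_3 in that order. Values after ± are standard errors for differences and SDs (n = 4 libraries) for levels. A gene passed with an adjusted p under 0.05 in edgeR's quasi-likelihood test with the label as a block. CPM are not divided by transcript length, so they compare libraries for 1 gene and not genes with each other. In bulk RNA, fewer cells of a type and less RNA per cell cannot be told apart.

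The siNC libraries held 26182192 to 43869274 estimated counts, and 15405 of 39253 genes had enough counts to test. Markers of granulosa cells were present in every library, with 10 of 10 tested and a summed level of 2080 to 5800 CPM. The siRNA target Nts was lower with siNTS than with siNC under every label at both times. Among the other cell types, 7 theca and interstitial markers summed to 236 to 667 CPM at 4 h and to 915 to 2080 CPM at 12 h, with Lhcgr, which granulosa cells also express, among them. Cyp17a1, which defines theca, averaged 0.486 to 0.962 CPM in the 4 groups. Of 6 erythrocyte markers none passed, and their sums ran from 101 to 4280 CPM. Of 11 immune markers none passed, with sums of 6.73 to 35.1 CPM and 1 marker without counts in each 12 h group. Of 12 oocyte markers none passed, with sums of 4.62 to 33.7 CPM and 3 markers without counts in the hCG 12 h group.

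The libraries also differed in a way that follows transcript length, and A_1 did so most. Length was taken from GENCODE transcripts for 93.9% of tested genes. For genes whose log2 CPM averaged 2 or more, the deviation of a library from its group mean had a Spearman rho with length of −0.63 in the A_1 control 4 h library, −0.13 in A_1 hCG 4 h, 0.51 in A_1 control 12 h and −0.63 in A_1 hCG 12 h. The A_1 control 12 h library thus stood opposite to the other A_1 libraries. For transcripts under 1 kb the median difference was 2.06 in A_1, 0.35 in A_2, −0.32 in B_2 and 0.14 in B_3, while over 8 kb it was −1.62, −0.31, 0.32 and −0.02. In the fit over all labels these medians were 0.49 and −0.44. Genes named below are therefore also given without A_1 and with a length correction, an alternative chosen after seeing the data, where that ends a call. Of 177 named genes that passed, 126 did so without A_1 and 154 with the length correction. Whether the correction also removed length trends that belong to hCG or time was not tested. Fewer passed without A_2 (79), without B_3 (113) or without the label block (70), and 138 passed without B_2.

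**Figure D1:**
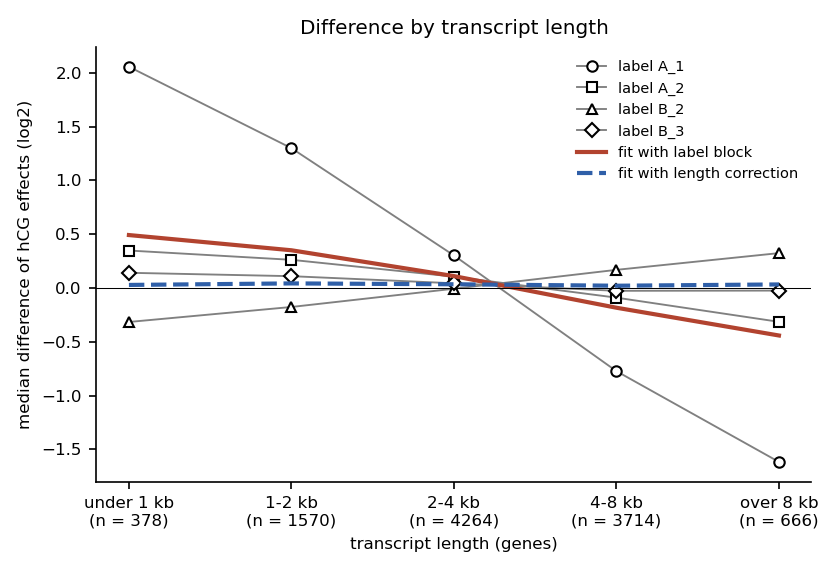
Median difference of hCG effects (log2, y axis) in 5 classes of transcript length (x axis) for each culture label, for the fit over all labels and for the fit with a length correction. Label A_1 falls from 2.06 under 1 kb to −1.62 over 8 kb, and the corrected fit stays between 0.02 and 0.04. The correction acts on length itself, so its flat medians test nothing.

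In all, 2174 of 15405 genes (14.1%) passed: 1288 (8.36%) had a positive and 886 (5.75%) a negative difference. Counts in the gene lists below are to be read against these shares. The median difference over all genes was 0.03. At the single times, hCG raised 1974 genes (12.8%) and lowered 2668 (17.3%) at 4 h, and raised 2022 (13.1%) and lowered 2142 (13.9%) at 12 h. The commonest positive pattern was a gene fitted lower with hCG at 4 h and higher at 12 h, in 826 of 1288. Another 206 were higher at both times, and 256 were lower at both. Of the 886 negative genes, 513 were fitted higher with hCG at 4 h and lower at 12 h, 193 higher at both and 180 lower at both. In 846 of the positive genes (65.7%) the hCG 12 h group had the highest mean of the 4 groups, against 22.1% of all tested genes, and in 926 (71.9%) the hCG 4 h group had the lowest mean, against 34.7%. Among the negative genes the hCG 4 h group was highest in 576 (65.0%) and the hCG 12 h group lowest in 577 (65.1%), against 28.0% and 22.9% of all tested genes. Since the difference chose these genes, the shares describe them and test nothing. Without the label block, 362 genes (2.35%) were positive and 224 (1.45%) negative. Leaving out label A_2 left 253 positive and 232 negative, and leaving out B_3 left 511 and 472.

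**Figure D2:**
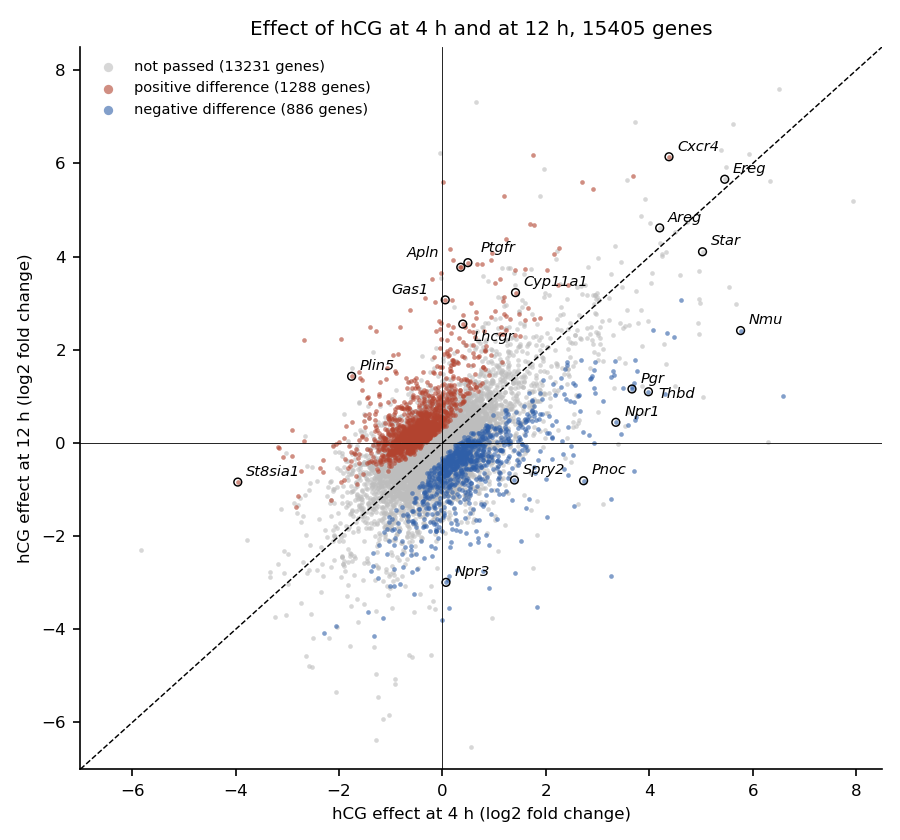
Fitted log2 fold change with hCG at 4 h (x axis) against that at 12 h (y axis), 1 point per gene, with 1288 genes of positive difference, 886 of negative difference and the rest in grey. Genes on the dashed line had the same effect at both times; Apln and Ptgfr lie near 0 at 4 h and high at 12 h, and Pnoc and Npr1 are high at 4 h and at −0.81 and 0.44 at 12 h.

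Among genes that passed, had 1 sign under all labels and reached a mean of 5 CPM in a siNC group, the 12 with the most positive difference were Hp, Ramp1, Apln, Ptgfr, Cdh15, Plin5, Slc12a8, St8sia1, Fabp4, Gas1, Slc16a11 and Edn2, from 3.67 to 2.91. Apln encodes apelin, a secreted peptide that acts on its own G-protein-coupled receptor. Without hCG, Apln measured 2.61, 3.06, 2.59 and 3.32 CPM at 4 h, and with hCG 3.17, 3.38, 2.93 and 5.57 CPM. At 12 h, Apln measured 8.02, 9.45, 7.49 and 9.07 CPM without hCG and 84.9, 125, 101 and 169 CPM with it. Control and hCG libraries overlapped at 4 h, and at 12 h every hCG library was far above every control library. The hCG effect on Apln went from 0.35 to 3.77, a difference of 3.42 ± 0.19, adjusted p = 1.28e-09.

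Ptgfr, the receptor for prostaglandin F2α, which acts in regression of the corpus luteum, showed the same form. It measured 3.03, 6.05, 6.75 and 7.06 CPM in control and 4.62, 9.7, 6.49 and 11.6 CPM in hCG libraries at 4 h. Its 12 h levels were 6.52, 8.5, 6.9 and 6.49 CPM without and 88.7, 119, 101 and 109 CPM with hCG. Only the hCG 12 h libraries of the 4 siNC groups exceeded 20 CPM, and the difference was 3.38 ± 0.29, adjusted p = 6.52e-07. Gas1, a membrane protein that binds hedgehog ligands, lay between 7.04 and 9.13 CPM in all 8 libraries of 4 h and at 7.11, 6.88, 7.31 and 6.89 CPM in control libraries of 12 h. With 12 h of hCG it stood at 55.1, 66.1, 52.4 and 63.6 CPM, giving a difference of 3.02 ± 0.17, adjusted p = 1.28e-09.

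Plin5, a coat protein of lipid droplets, changed in opposite directions at the 2 times. At 4 h it fell from 1.48, 1.8, 2.59 and 1.97 CPM to 0.417, 0.555, 0.759 and 0.557 CPM with hCG, and at 12 h it rose from 4.31, 4.26, 5.24 and 4.93 CPM to 11.9, 12.6, 12.7 and 13.2 CPM. The groups did not overlap at either time, and the difference was 3.19 ± 0.21, adjusted p = 1.76e-08. Hp, which encodes haptoglobin, a plasma protein that binds free haemoglobin, had 3 to 13 counts per library in both 4 h groups. It rose at 12 h from 0.558, 0.574, 0.678 and 0.739 CPM to 4.89, 8.65, 7.23 and 12.4 CPM, with a difference of 3.67 ± 0.49, adjusted p = 7.97e-05. Edn2, encoding endothelin 2, a peptide that contracts smooth muscle around the ovulating follicle, rose at both times. The hCG effect on Edn2 was 1.77 at 4 h, with a mean of 2.26 CPM, and 4.68 at 12 h, with a mean of 5.44 CPM, and the difference was 2.91 ± 0.42, adjusted p = 0.000167.

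In Ramp1 and Fabp4 it was the control level that fell between the times. Ramp1, which makes the calcitonin-like receptor respond to CGRP, averaged 20.3 ± 18.6 CPM in control and 13.8 ± 2.6 CPM in hCG libraries at 4 h. At 12 h the control libraries were at 1.47, 1.6, 3.98 and 1.77 CPM and the hCG libraries at 23.2, 18.1, 15.9 and 18 CPM, and the change with hCG from 4 h to 12 h did not pass. Fabp4, a fatty acid carrier, likewise averaged 0.652 ± 0.417 CPM in control and 8.8 ± 2.07 CPM in hCG libraries at 12 h, against 7.21 and 11.9 CPM at 4 h. St8sia1, the GD3 ganglioside synthase, was lowered by hCG at both times, with effects of −3.96 at 4 h and −0.84 at 12 h. Cdh15, a cadherin, had a difference of 3.31 ± 0.51 and Slc12a8, of the cation-chloride cotransporter family, one of 3.16 ± 0.40. The call on Slc16a11, of the monocarboxylate transporter family, was lost without A_1 (adjusted p = 0.0791) and without A_2 (adjusted p = 0.0801).

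**Figure D3:**
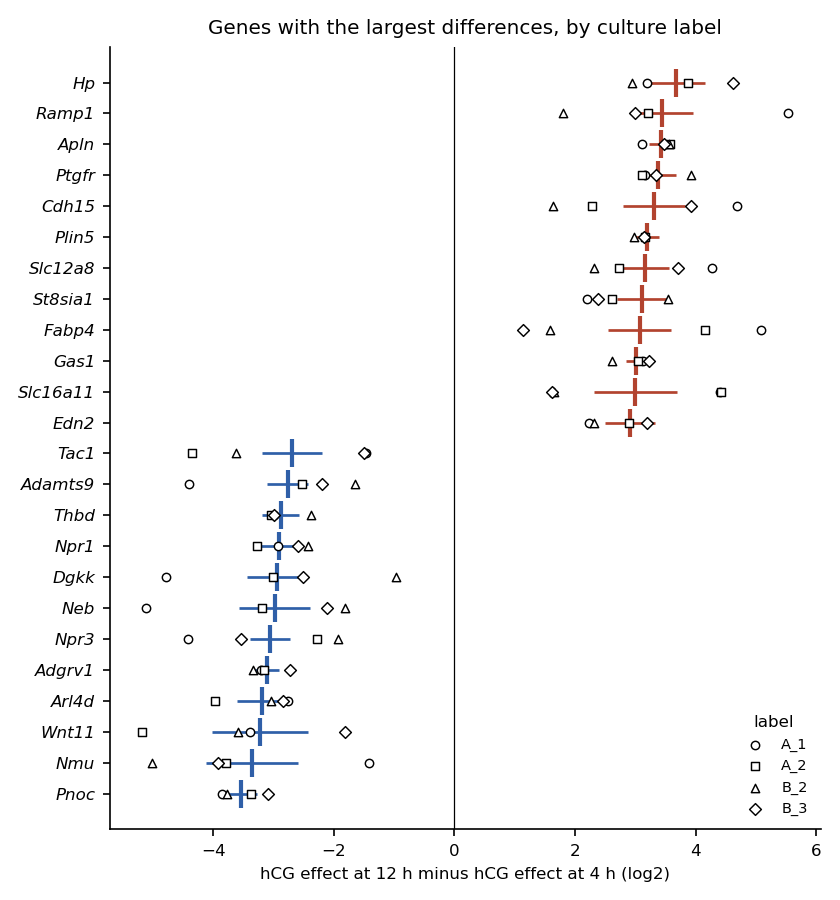
The 24 genes with the largest differences that passed, had 1 sign under all 4 labels and reached 5 CPM; the x axis is the hCG effect at 12 h minus that at 4 h (log2), coloured ticks are fitted values with standard errors, and open symbols are the 4 labels. Apln, Plin5 and Gas1 lie close together across labels, and Ramp1, Fabp4, Dgkk and Tac1 spread over more than 2 log2 units.

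Under the same rule the 12 genes with the most negative difference were Pnoc, Nmu, Wnt11, Arl4d, Adgrv1, Npr3, Neb, Dgkk, Npr1, Thbd, Adamts9 and Tac1, from −3.54 to −2.69. Pnoc encodes the precursor of the peptide nociceptin. At 4 h, Pnoc measured 6.9, 8.46, 10.9 and 7.53 CPM in control cells and 71.3, 56.6, 69.8 and 33.2 CPM with hCG. At 12 h, Pnoc measured 22.3, 16.5, 28.4 and 20.7 CPM without hCG and 15.9, 10.5, 13.3 and 10.7 CPM with it. Every hCG library was above every control library at 4 h and below every control library at 12 h, and the difference was −3.54 ± 0.26, adjusted p = 8.18e-08.

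Adgrv1, a very large adhesion receptor, followed Pnoc in both directions. It rose at 4 h from 9.6, 8.33, 8.87 and 7.92 CPM to 43.1, 55.7, 47.3 and 40.7 CPM and fell at 12 h from 16.7, 15.6, 14.7 and 14.3 CPM to 8.09, 11.7, 7.7 and 11 CPM (difference −3.10 ± 0.21, adjusted p = 1.76e-08). Thbd encodes thrombomodulin, a cell-surface cofactor that turns thrombin towards anticoagulant protein C. Its mean went from 1.64 ± 0.531 to 25.4 ± 5.64 CPM with hCG at 4 h and from 1.34 ± 0.642 to 2.81 ± 0.968 CPM at 12 h, and the difference was −2.88 ± 0.31, adjusted p = 9.87e-06. Adamts9, a matrix protease, was raised at 4 h (2.00) and lowered at 12 h (−0.77). Arl4d, an ARF-like GTPase, and Dgkk, a diacylglycerol kinase, had hCG effects of 3.74 and 2.93 at 4 h and of 0.56 and −0.01 at 12 h.

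Some of these calls rested on single labels. Nmu, the neuromedin U gene, rose from a mean of 1.11 to 56.5 CPM at 4 h and from 0.244 to 1.3 CPM at 12 h, and its difference of −3.35 ± 0.76 was not past the threshold without B_2 (adjusted p = 0.059). Wnt11 went from 0.927 to 11.1 CPM at 4 h and stood at 0.0793 and 0.117 CPM at 12 h. Its call was lost without A_2 (adjusted p = 0.138) and without the label block (adjusted p = 0.115). Neb, nebulin of muscle thin filaments, and Tac1, the substance P precursor, were lost without A_2 at adjusted p-values of 0.0504 and 0.0504, and Tac1 also without the label block (adjusted p = 0.11). The call on Wnt11 was lost for a least difference of 1.5-fold too (adjusted p = 0.0541). The other 19 of the 24 genes passed under every alternative.

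**Figure D4:**
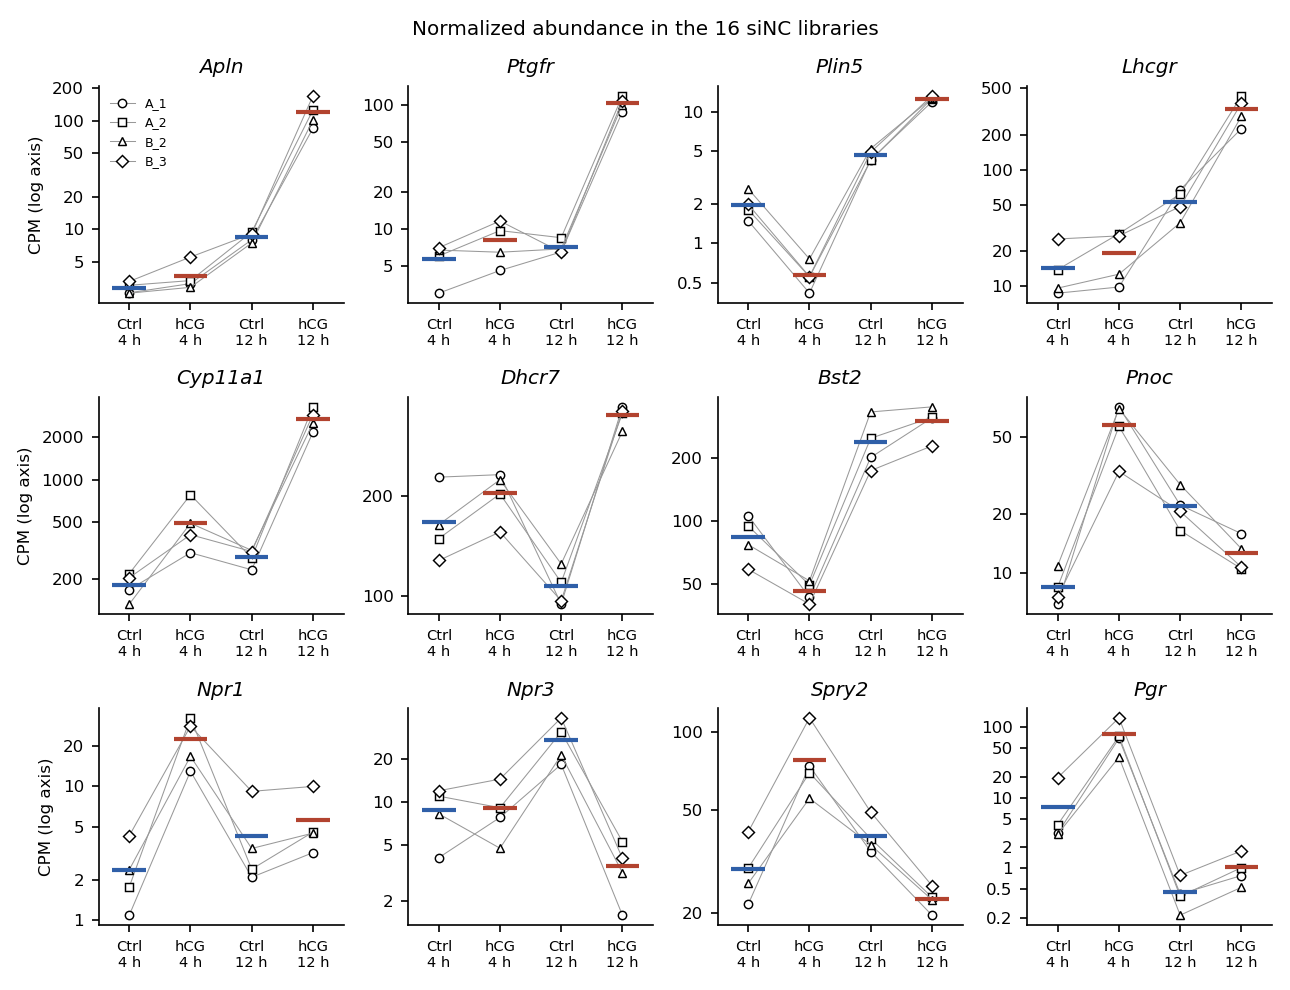
CPM (log axis) of 12 genes in the 16 siNC libraries, by group; open symbols are libraries, grey lines join libraries of 1 label, and coloured bars are group means. Apln, Ptgfr, Cyp11a1 and Lhcgr are highest with 12 h of hCG, and Pnoc, Npr1, Spry2 and Pgr with 4 h of hCG.

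Receptors and ligands were among the genes with the largest differences. The list of secreted peptides, their receptors and receptor-modifying proteins had 7 positive and 5 negative members of 27 tested, with a median of 0.06. Of its members 44.4% passed, against 14.1% of all genes. Lhcgr, the receptor through which hCG acts, stood at 8.65, 13.8, 9.56 and 25.3 CPM in control and 9.77, 28.1, 12.6 and 26.9 CPM in hCG libraries at 4 h. By 12 h it was at 67.1, 61.6, 34.9 and 48.1 CPM without and 225, 431, 287 and 373 CPM with hCG. Its 4 h groups overlapped, its 12 h groups did not, and the difference was 2.16 ± 0.40, adjusted p = 0.00178.

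Of the natriuretic peptide genes in this list, Nppc had a positive difference, Npr1 and Npr3 negative ones, and Npr2 did not pass. In follicles the peptide encoded by Nppc acts on NPR2, a guanylyl cyclase receptor of granulosa cells, and holds the oocyte in meiotic arrest. Nppc, named after its values were seen, fell at 4 h from 22.3, 18, 11 and 20.2 CPM to 7.29, 5.43, 5.1 and 7.6 CPM with hCG. At 12 h it stood at 2.18, 3.64, 4.72 and 2.85 CPM without hCG and 6.06, 4.26, 4.9 and 5.6 CPM with it. Its 4 h groups did not overlap and its 12 h groups did, and the difference was 2.10 ± 0.35, adjusted p = 0.000805. Npr1, a guanylyl cyclase receptor for the atrial peptide, rose at 4 h from 1.08, 1.76, 2.37 and 4.26 CPM to 13, 32.7, 16.8 and 28.3 CPM, and at 12 h measured 2.08, 2.39, 3.42 and 9.18 CPM without and 3.18, 4.54, 4.46 and 10 CPM with hCG. The 12 h groups of Npr1 overlapped, and the difference was −2.91 ± 0.36, adjusted p = 4.71e-05. Npr3, which clears natriuretic peptides from the cell surface, averaged 8.84 ± 3.56 CPM without and 9.03 ± 4.06 CPM with hCG at 4 h. At 12 h Npr3 fell from 18.4, 31.1, 21.4 and 39.1 CPM to 1.6, 5.26, 3.19 and 4.02 CPM, with a difference of −3.06 ± 0.33, adjusted p = 9.66e-06. Npr2 averaged 52 ± 16.6 CPM without and 35 ± 8.44 CPM with hCG at 4 h, and 52.6 ± 17.5 and 38.6 ± 8.82 CPM at 12 h. Its difference of 0.06 ± 0.31, adjusted p = 0.908, given after its value was seen, was −1.06 in A_1 and between 0.38 and 0.65 in the other labels, and without A_1 it was 0.52, adjusted p = 0.0828.

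Beside Apln and Edn2, the positive peptide genes were Ramp1, Ramp2 (0.95), Nppc, Bdkrb2 (2.13), a bradykinin receptor, and Apela (2.91), which encodes the second ligand of the apelin receptor. Edn1, encoding endothelin 1, had a negative difference where Edn2 had a positive one (−2.002 ± 0.39, adjusted p = 0.0025). Ramp2, Bdkrb2, Apela and Edn1 were named after their values were seen. Of the list, 5 to 7 positive and 4 to 5 negative members were left when 1 label was dropped. Adcyap1, encoding the peptide PACAP, was raised at both times, from 1.4 to 129 CPM at 4 h and to 8.3 CPM at 12 h, where control libraries had 0 to 4 counts. Its difference did not pass (1.09 ± 0.64, adjusted p = 0.245). Cxcr4, a chemokine receptor, rose from 3.64 ± 1.46 to 76.2 ± 21.1 CPM at 4 h and from 0.71 ± 0.254 to 50.5 ± 9.01 CPM at 12 h, with a difference of 1.76 ± 0.34, adjusted p = 0.00231. Apela (adjusted p = 0.0598) missed the threshold without A_1. The calls on Ramp2 and Bdkrb2 were lost without A_2 or B_3 (adjusted p from 0.0552 to 0.154). Without the label block, those on Ramp2, Bdkrb2 and Edn1 were lost (adjusted p from 0.0534 to 0.109).

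Nts, encoding neurotensin, had no difference past the threshold (0.97 ± 0.80, adjusted p = 0.409). At 4 h it measured 7.57, 2.47, 2.87 and 9.82 CPM in control and 16.1, 28.7, 22.9 and 180 CPM in hCG libraries. At 12 h its levels were 0.0254, 0.175, 0.185 and 0.871 CPM without hCG, from 1 to 33 counts, and 2.69, 1.56, 1.49 and 9.67 CPM with it. The groups did not overlap at either time. Per label the difference was 4.08 in A_1 and between −0.79 and −0.27 in the others, and without A_1 it was −0.30.

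Of the EGF-like ligands, Areg and Ereg had similar fitted hCG effects at both times, while Nrg1 and Btc had negative differences. Areg and Ereg, encoding amphiregulin and epiregulin, which carry the hCG signal to EGF receptors, had effects of 4.20 and 5.46 at 4 h and of 4.62 and 5.66 at 12 h. At 4 h, Areg averaged 6.76 CPM without and 109 CPM with hCG, and at 12 h 0.517 and 11.5 CPM. For Ereg the 4 h averages were 4.98 and 203 CPM and those of 12 h 0.845 and 38.8 CPM. Neither difference passed (Areg 0.42 ± 0.42, adjusted p = 0.503; Ereg 0.20 ± 0.42, adjusted p = 0.755). Of 15 genes for EGF-like ligands, their shedding protease and ERBB receptors, 3 were negative and none was positive: the ligands Nrg1 (−1.24 ± 0.33) and Btc (−0.89 ± 0.24) and the receptor Erbb2 (−0.56 ± 0.13). The share of this list that passed was 20%, against 14.1% of all genes. No gene of this list was negative without the label block or without A_2, and without A_1, where the calls on Nrg1 (adjusted p = 0.0651) and Btc (adjusted p = 0.0776) were lost, there were 1 negative and 1 positive.

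Among 17 prostaglandin genes 17.6% passed, near the 14.1% of all genes. There 2 were positive, Ptgfr and Ptgs1 (1.90 ± 0.22, adjusted p = 2.75e-05), and 1 was negative, Ptger3 (−2.29 ± 0.50, adjusted p = 0.00541). Ptgs1 encodes the constitutive cyclooxygenase, and Ptger3 a receptor for prostaglandin E2. Ptger3 was low, with a mean of 0.773 CPM, and had no value when genes were limited to a mean of at least 1 CPM. Ptgs2, the cyclooxygenase needed for ovulation, had hCG effects of 2.96 and 3.17 and no difference past the threshold (0.21 ± 0.42, adjusted p = 0.743). The call on Ptgs1 was lost without the label block (adjusted p = 0.0524). The list held 2 positive and 3 negative members without A_1.

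Of 19 ERK pathway targets and feedback regulators, 9 had a negative difference, meaning a higher hCG effect at 4 h, and none a positive one, against 5.75% and 8.36% of all genes. The median hCG effect of the 19 was 0.83 at 4 h and −0.14 at 12 h. Spry2, an inhibitor of receptor tyrosine kinase signalling, stood at 21.7, 29.9, 26.1 and 41.2 CPM in control and 73.8, 69.5, 55.4 and 113 CPM in hCG libraries at 4 h. At 12 h Spry2 was at 34.6, 38.8, 36.7 and 49.1 CPM without hCG and 19.7, 23.1, 22.6 and 25.6 CPM with it. The groups did not overlap at either time, with hCG higher at 4 h and lower at 12 h, and the difference was −2.19 ± 0.18, adjusted p = 2.94e-07. Phlda1, a pleckstrin homology domain protein, and Dusp4 and Dusp10, phosphatases that switch off MAP kinases, had differences of −1.70 ± 0.17, −1.70 ± 0.18 and −1.34 ± 0.21. The phosphatase genes Dusp1, Dusp5 (−1.35) and Dusp6 (−1.18), the ERK inhibitor Spred2 (−0.52) and the ERK-induced factor Etv5 (−0.74) were also negative and were named after their values were seen. Errfi1, an inhibitor of EGF receptors, was raised at both times (2.02 and 2.07), and its difference did not pass (0.05 ± 0.20, adjusted p = 0.878). The list had 5 to 10 negative members under the alternatives, with 6 when the label block was left out. Spred2 (adjusted p = 0.0845) did not pass without A_1. Dusp1, at −0.04 in A_1, lost its call without A_2, B_2 or B_3 (adjusted p from 0.084 to 0.167).

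Immediate early and cAMP-responsive genes were also mostly negative where they passed: 12 of 27 were negative and 1 was positive, with a median difference of −0.60. Egr2, a zinc finger transcription factor, went from a mean of 5.95 ± 1.35 to 10.4 ± 4.74 CPM at 4 h and from 3.31 ± 1.78 to 1.85 ± 0.529 CPM at 12 h (difference −1.49 ± 0.21, adjusted p = 0.000165). Egr3 (−1.46 ± 0.25), the transcription factor gene Myc (−0.82 ± 0.16) and Cited2 (−0.70 ± 0.10), a cofactor that binds CBP and p300, were negative too. Further negative members, named after their values were seen, were Egr1 (−0.68), Nr4a2 (−0.90), Fosb (−0.94), Crem (−1.03), Atf3 (−0.84), Klf4 (−1.07), Per1 (−0.98) and Dusp1 (−0.58). The positive member was Pde4d, a phosphodiesterase that breaks down cAMP (0.97 ± 0.31, adjusted p = 0.0456), also named after the fact. The Pde4d difference was −0.14 in A_1. Its call was lost without A_2, B_2 or B_3 (adjusted p from 0.161 to 0.168) and without the label block (adjusted p = 0.194). It was also lost with a culture date block (adjusted p = 0.0602) and with only the siNC libraries (adjusted p = 0.0751). Ier3, with a difference of −0.998, missed the threshold (adjusted p = 0.0925). Without the label block 1 member was negative, and without A_2 6 were. Nr4a2, Fosb and Atf3 missed the threshold without A_1 (adjusted p from 0.074 to 0.187). In A_1 the difference was 0.04 for Crem and −0.04 for Dusp1. Both calls were lost without A_2, B_2 or B_3 (adjusted p from 0.0761 to 0.167). They were also lost without the label block (adjusted p from 0.0873 to 0.125), and that on Crem with only the siNC libraries (adjusted p = 0.0603). The list had 2 positive and 9 negative members without A_1, and 2 and 14 with the length correction, where Ier3 passed (adjusted p = 0.00869).

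Of 30 genes known to act in ovulation or cumulus expansion, 6 were positive and 3 negative (30% passing, against 14.1% of all genes). Their median hCG effects of 1.96 at 4 h and 1.70 at 12 h were the highest of all lists. The positive members were Edn2, Cxcr4, Timp1, Ctsl (0.56), which encodes a cathepsin, the transcription factor gene Cebpb (0.57) and Rgcc (0.85), and the negative ones Pgr, Ptx3 and Btc. Ctsl, Cebpb and Rgcc were named after their values were seen. Pgr, the progesterone receptor that granulosa cells need for ovulation, showed the largest negative difference in the list. Pgr measured 3.16, 4.16, 3.05 and 19.3 CPM in control and 69.7, 74.7, 37.7 and 136 CPM in hCG libraries at 4 h. By 12 h it was at 0.431, 0.399, 0.216 and 0.791 CPM without hCG and 0.787, 1.02, 0.536 and 1.76 CPM with it. At 4 h every hCG library exceeded every control library, and at 12 h all 8 libraries were at or under 1.76 CPM and the groups overlapped. The difference passed (−2.51 ± 0.40, adjusted p = 0.000501) but not without the label block (adjusted p = 0.154). Leaving out 1 label left 2 to 6 positive and 2 to 3 negative members of the list. Ptx3, a matrix protein of the expanded cumulus, was at a mean of 14.5 CPM with hCG at 4 h and 0.761 CPM at 12 h (difference −1.72 ± 0.28, adjusted p = 0.000644). The calls on Ctsl, Rgcc and Btc were lost without A_1 (adjusted p from 0.0776 to 0.191), and those on Cebpb and Rgcc with the length correction (adjusted p from 0.0646 to 0.578).

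Among 23 genes of granulosa cells before the ovulatory signal, 4 were positive and 3 negative (30.4% passing, against 14.1% of all genes). The former were Fshr, Lhcgr, the transcription factor gene Foxl2 (0.55) and Inhbb (0.83), an inhibin and activin subunit, and the latter Inhba, Esr2 and Fst (−0.66), which encodes the activin antagonist follistatin. Foxl2, Inhbb and Fst were named after their values were seen, and leaving out 1 label left 2 to 4 positive and 1 to 4 negative members. Fshr, the FSH receptor, fell at 4 h from 14, 14.4, 15.8 and 10.7 CPM to 7.29, 9.85, 9.83 and 7.07 CPM and rose at 12 h from 22.1, 27.9, 31 and 21.4 CPM to 40, 33.7, 39.6 and 28.6 CPM. The 4 h groups did not overlap, while at 12 h the lowest hCG library lay below the highest control library, and the difference was 1.17 ± 0.14, adjusted p = 2.75e-05. Inhba, which encodes the subunit shared by activin A and inhibin A, stood at 227, 522, 420 and 896 CPM and 901, 884, 540 and 1820 CPM at 4 h. At 12 h its levels were 404, 350, 313 and 429 CPM in control and 125, 189, 236 and 222 CPM in hCG libraries. Inhba was higher with hCG at 4 h and lower at 12 h under every label, with a difference of −2.05 ± 0.40, adjusted p = 0.00237. Esr2, the estrogen receptor of granulosa cells, was lowered at both times, more at 12 h (−1.22 and −2.19; difference −0.97 ± 0.22, adjusted p = 0.00604). Cyp19a1, the aromatase that makes estradiol, was low in all groups, with means of 1.88 to 6.51 CPM, and did not pass (0.83 ± 0.59, adjusted p = 0.336). Gja1, the gap junction protein connexin 43, was lowered at both times (−1.33 and −1.36), and its difference did not pass (−0.02 ± 0.18, adjusted p = 0.932). Foxl2 and Fst missed the threshold without A_1 (adjusted p from 0.0675 to 0.129).

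Of 18 steroid synthesis genes tested, 8 had a positive difference, meaning a higher hCG effect at 12 h, and none a negative one, and the median hCG effect was 0.09 at 4 h and 0.64 at 12 h. Cyp11a1, the side-chain cleavage enzyme that makes pregnenolone from cholesterol, measured 167, 217, 132 and 203 CPM in control and 305, 784, 493 and 409 CPM in hCG libraries at 4 h. After 12 h it was at 231, 280, 317 and 311 CPM without hCG and 2170, 3280, 2510 and 2890 CPM with it. The groups did not overlap at either time, and the difference was 1.81 ± 0.24, adjusted p = 7.97e-05. Fdx1, the electron donor of that enzyme, had a difference of 1.20 ± 0.31. Hsd17b7, which acts in cholesterol and estradiol synthesis, had one of 0.66 ± 0.16, and the 5α-reductase gene Srd5a1 one of 0.51 ± 0.14. The other positive members, Hsd3b1 (0.58), Fdxr (0.47), Akr1c14 (0.93) and Tspo (1.15), were named after their values were seen. Hsd3b1 has close copies among which counts may be split. Star, which carries cholesterol into mitochondria, was at 13.4, 13.8, 15.1 and 58.2 CPM in control and 584, 794, 616 and 959 CPM in hCG libraries of 4 h. At 12 h its levels were 26.7, 32.9, 26.1 and 39.4 CPM without and 344, 729, 453 and 697 CPM with hCG, so every hCG library exceeded every control library at both times. Its difference did not pass (−0.92 ± 0.38, adjusted p = 0.106), but it did without B_3 (−1.45, adjusted p = 0.0116). Por, the electron donor of microsomal P450 enzymes, did not pass (−0.37 ± 0.14, adjusted p = 0.0739) except with the length correction (−0.49, adjusted p = 0.0363). The calls on Fdx1, Hsd3b1, Fdxr, Akr1c14 and Tspo were lost without A_1 (adjusted p from 0.0552 to 0.257), and those on Srd5a1, Hsd3b1 and Fdxr with the length correction (adjusted p from 0.0909 to 0.306). The positive count of the list was 3 without A_1, 6 with the length correction, 1 without A_2, 4 without B_2, 3 without B_3, 2 without the label block and 2 when the siNTS libraries were left out. The summed theca markers had medians of 573 CPM without and 344 CPM with hCG at 4 h, and of 1790 and 1200 CPM at 12 h, and their part in these values was not tested.

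Cholesterol synthesis gave the highest share of positive calls of all lists, 15 of 23 with none negative. Its median difference was 0.66, against 0.03 for all genes. Dhcr7, the last enzyme of one branch of the pathway, measured 228, 149, 164 and 128 CPM without and 232, 203, 224 and 156 CPM with hCG at 4 h. At 12 h the control libraries were lower, at 94.6, 110, 125 and 96.8 CPM, and the hCG libraries higher, at 371, 355, 313 and 361 CPM. The 4 h groups overlapped and the 12 h groups did not, and the difference was 1.42 ± 0.20, adjusted p = 0.000187. Mvk, mevalonate kinase, measured 116, 82.5, 84.3 and 57.7 CPM in control and 74.2, 75.7, 84.6 and 53.9 CPM in hCG libraries of 4 h, which overlapped. After 12 h it was at 60.2, 65.4, 83 and 48.2 CPM without and 152, 116, 109 and 104 CPM with hCG, which did not overlap (difference 1.12 ± 0.18, adjusted p = 0.000606). Acat2, a thiolase that makes acetoacetyl-CoA, and Lss, lanosterol synthase, had differences of 1.14 ± 0.19 and 0.75 ± 0.14. Of the remaining positive genes, Pmvk (0.82), Mvd (0.87), Idi1 (0.75), Fdps (0.88) and Fdft1 (0.58) act between mevalonate and squalene. Sqle (0.50), Tm7sf2 (1.20), Nsdhl (0.78), Hsd17b7 and Ebp (0.84) act from squalene towards cholesterol, and Scap (0.66) is the sterol sensor that escorts SREBP. All of these but Hsd17b7 were named after their values were seen. Msmo1, a sterol oxidase of the pathway, did not pass (0.48 ± 0.25, adjusted p = 0.194). Hmgcs1, which makes HMG-CoA, did not pass over all labels (0.44 ± 0.18, adjusted p = 0.11) but did without A_1 (0.70, adjusted p = 0.000864). The positive count was 13 without A_1, 16 with the length correction, 9 without B_3, 5 without the label block and 4 without A_2. Under every alternative the median lay between 0.51 and 0.71. The calls on Pmvk, Tm7sf2, Nsdhl and Ebp were lost without A_1 (adjusted p from 0.0703 to 0.211), and that on Pmvk (adjusted p = 0.0522) with the length correction.

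Promoters of this list are shown because its members moved in 1 direction. RefSeq promoter sequence (build GRCm38.p6) was matched for 18 of the 23 genes, and the 250 bases before each start were searched for CCAAT on both strands (ATTGG on the other strand). Such boxes bind the factor NF-Y, which acts with the sterol-regulated factor SREBP2 at cholesterol genes. At least 1 match was found in 16 of 18 genes (88.9%), of which 10 had a positive difference and 6 did not pass, against 40.4% of 12035 tested genes with promoters. The E-box CACGTG was found in 5 of 18 (27.8%), against 9.53%, a share also reached by the immediate early and cAMP list (5 of 19, 26.3%), whose called members were mostly negative, and the sterol motif TCACNCCAC in 1 of 18 (5.56%), that of Hmgcs1, against 1.27%. These are matches of letters, not binding sites. Mvk, with 5 matches, and Lss, with 1, are printed 5′ to 3′ on their own strand with the CCAAT and ATTGG letters in capitals; Mvk lies at chr5:114444019-114444268 on the plus strand and Lss at chr10:76531355-76531604 on the plus strand.
Mvk: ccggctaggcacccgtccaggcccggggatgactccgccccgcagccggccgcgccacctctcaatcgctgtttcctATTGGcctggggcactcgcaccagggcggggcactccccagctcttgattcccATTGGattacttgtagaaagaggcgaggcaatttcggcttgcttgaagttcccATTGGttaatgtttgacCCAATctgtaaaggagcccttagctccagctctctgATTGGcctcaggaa
Lss: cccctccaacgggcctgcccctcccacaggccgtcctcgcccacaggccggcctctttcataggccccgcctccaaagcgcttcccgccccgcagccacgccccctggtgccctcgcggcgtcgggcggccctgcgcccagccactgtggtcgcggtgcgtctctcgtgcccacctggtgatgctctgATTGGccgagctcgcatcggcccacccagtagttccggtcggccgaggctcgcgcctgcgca

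In fatty acid synthesis and elongation 6 of 17 were positive and 1 negative (41.2% passing, against 14.1% of all genes). The desaturases Fads2 (0.87 ± 0.10), Fads1 (0.66 ± 0.10) and Scd1 (0.76 ± 0.14), the elongase Elovl5 (0.79 ± 0.12) and Acss2 (1.07 ± 0.18), which makes acetyl-CoA from acetate, were positive, as was Scd2 (0.58), a close relative of Scd1. Acsl4, an acyl-CoA synthetase for arachidonic acid, was the negative member (−0.67 ± 0.15); it, Scd1 and Scd2 were named after their values were seen. Fasn, the fatty acid synthase, did not pass (0.21 ± 0.21, adjusted p = 0.515) except with the length correction (0.64, adjusted p = 0.00857). The list had 10 positive members without A_1 and 11 with the length correction, and leaving out single labels left 5 to 10 positive and 0 to 1 negative members. Acsl4 (adjusted p = 0.0569) did not pass with the length correction.

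For lipoprotein uptake, storage and export, 2 of 22 genes were positive and 3 negative (22.7% passing, against 14.1% of all genes). Abca1, which exports cholesterol from the cell, rose at 4 h from 8.3, 13.6, 15.4 and 37.6 CPM to 201, 232, 167 and 291 CPM and at 12 h from 26.6, 34, 16.6 and 29.1 CPM to 34.8, 77.7, 64.2 and 105 CPM. The hCG libraries were above the control libraries at both times, by less at 12 h, with a difference of −2.42 ± 0.41, adjusted p = 0.000933. Soat1, which esterifies cholesterol for storage, was positive (0.91 ± 0.18), as was Nr1h3, the sterol receptor LXRα (1.23 ± 0.30). Cd36, a fatty acid transporter (−0.78 ± 0.20), and Apoe (−0.46 ± 0.14), a lipoprotein named after its value was seen, were negative. With 1 label left out there were 0 to 5 positive and 1 to 3 negative members, and both without A_1 and with the length correction the list had 5 positive and 3 negative ones. Nr1h3 (adjusted p = 0.0819) missed the threshold without A_1. Cd36, at 0.09 in A_1, lost its call without A_2, B_2 or B_3 (adjusted p from 0.0619 to 0.146) and without the label block (adjusted p = 0.118). Scarb1, the receptor for high density lipoprotein, was raised at both times (2.57 and 2.15), and its difference did not pass (−0.42 ± 0.17, adjusted p = 0.101).

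Interferon-stimulated genes had the highest median difference of all lists, 1.12, with 16 of 29 positive and none negative. Their median hCG effect was −0.81 at 4 h and 0.14 at 12 h, farther from 0 at 4 h. Bst2, tetherin, which holds budding virus at the cell surface, stood at 106, 94.7, 77.2 and 58.9 CPM in control and 43.3, 49.6, 51.9 and 40.2 CPM in hCG libraries at 4 h. At 12 h it was at 201, 248, 331 and 174 CPM without and 310, 312, 350 and 228 CPM with hCG. The groups were apart at 4 h and overlapped at 12 h, and both 12 h groups lay above both 4 h groups; the difference was 1.18 ± 0.19, adjusted p = 0.000586. Psmb8, a subunit of the immunoproteasome, measured 28.1, 20.2, 15.7 and 19.5 CPM without and 10.9, 13.9, 15 and 12.9 CPM with hCG at 4 h. Its 12 h levels were 16.9, 18.2, 26.2 and 18.6 CPM in control and 55.7, 34.4, 37.6 and 24.5 CPM in hCG libraries. The hCG libraries were all lower at 4 h, and at 12 h they were higher with an overlap (difference 1.51 ± 0.32, adjusted p = 0.004). Tap1, the peptide transporter of antigen presentation, and Ifi35 had differences of 0.73 ± 0.13 and 1.12 ± 0.23. The transcription factor genes Irf7 (1.48) and Irf9 (0.93) and the effectors Xaf1 (1.68), Ifi44 (2.04), Rsad2 (1.62), Oasl1 (1.52), Gbp2 (0.96) and Gbp3 (1.57) were also positive. So were Ddx58 (0.84) and Dhx58 (1.39), sensors of viral RNA, and Psmb9 (1.24), another immunoproteasome subunit. All of these from Irf7 on were named after their values were seen, and the Gbp and Oas families have close copies among which counts may be split. Ifi27 did not pass (0.57 ± 0.31, adjusted p = 0.217). Ifi44 and Dhx58 were low, and had no value when genes were limited to a mean of at least 1 CPM. Their calls were lost without A_2, B_2 or B_3 (adjusted p from 0.068 to 0.234) and without the label block (adjusted p from 0.104 to 0.147). The calls on Oasl1, Rsad2 and Psmb9 were lost without A_1 (adjusted p from 0.0574 to 0.225), and those on Dhx58 and Gbp2 with the length correction (adjusted p from 0.0637 to 0.0816). The positive count was 15 without A_1, 14 with the length correction, 9 without B_2 or B_3, 9 without the siNTS libraries, 4 without the label block and 2 without A_2. Immune cell markers, 11 in all, had a median difference of 0.36, which became −0.37 without A_1 and −0.005 with the length correction. The interferon medians in these settings were 0.91 and 0.88. The part of immune cells in the interferon result was not tested.

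For 24 of the 29 interferon genes a promoter was matched, and the same 250 bases were searched for 2 copies of GAAA with 2 bases between them, on both strands, the core of the element bound by interferon-regulated factors. It was found in 10 of 24 (41.7%), against 3.04% of tested genes with promoters. Of the 10, 4 had a positive difference (Rsad2, Bst2, Gbp2 and Gbp3) and the other 6 did not pass. Bst2 and Tap1 are printed to show a promoter with and without it. Bst2 (chr8:71537473-71537722, minus strand) holds 2 overlapping matches, in capitals, of which the nearer begins 124 bases before the start, and Tap1 (chr17:34187306-34187555, plus strand) holds none. The cAMP motif TGACGTCA, searched in the same way, was found in 2 of 19 immediate early and cAMP-responsive genes (10.5%) and 2 of 13 ERK targets and feedback regulators (15.4%), against 2.86%. Dusp1, which had a negative difference, was counted in both lists, so these shares are not separate. The other genes with the motif, Btg2 and Errfi1, did not pass.
Bst2: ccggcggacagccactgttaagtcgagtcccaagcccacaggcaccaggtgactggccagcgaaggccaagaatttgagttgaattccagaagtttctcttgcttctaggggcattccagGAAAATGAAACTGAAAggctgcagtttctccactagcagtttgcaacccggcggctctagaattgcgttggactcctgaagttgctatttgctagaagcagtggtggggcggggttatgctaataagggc
Tap1: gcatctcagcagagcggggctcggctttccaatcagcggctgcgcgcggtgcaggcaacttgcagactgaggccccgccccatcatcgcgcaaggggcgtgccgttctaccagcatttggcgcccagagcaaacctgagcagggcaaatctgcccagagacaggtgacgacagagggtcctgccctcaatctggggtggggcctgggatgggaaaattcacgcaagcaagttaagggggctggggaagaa

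For TGFβ and BMP signalling and ID genes 9 of 29 were negative and 1 positive, with a median of −0.57. The positive gene was Tgfbr1, the type I TGFβ receptor (1.41 ± 0.21, adjusted p = 0.000215), and the negative genes included the ligand Bmp6 (−1.41 ± 0.22), the inhibitor Smad7 (−0.96 ± 0.19) and the activin receptor Acvr2b (−0.83 ± 0.19). The others were the ligand Tgfb2 (−0.91), the receptors Tgfbr2 (−0.40) and Acvr1 (−0.64), the mediator Smad3 (−0.58), the BMP antagonist Grem1 (−1.10) and the repressor Skil (−0.62), named after their values were seen. Among 33 Wnt, Notch and hedgehog genes, 9 were negative and 2 positive. Wnt4, a ligand that acts in ovarian development, was positive (1.76 ± 0.23, adjusted p = 6e-05): its control mean went down from 90.7 to 33.8 CPM between the times, and its hCG mean went from 120 to 150 CPM. Jag1, a Notch ligand, rose at 4 h from 19.4, 33.2, 35.1 and 70.5 CPM to 142, 84.5, 81.9 and 225 CPM with hCG. At 12 h it measured 19.3, 17.3, 14.5 and 20.8 CPM without and 9.26, 11.1, 12.3 and 14 CPM with hCG. The groups did not overlap at either time, with hCG above control at 4 h and below it at 12 h (difference −2.43 ± 0.34, adjusted p = 0.000141). The Notch targets Hey1 (−1.53) and Hes1 (−0.58) and the hedgehog targets Hhip (−1.31) and Ptch1 (−0.59) were negative and were named after their values were seen; Fzd1, a Wnt receptor, was too (−0.80 ± 0.14). Wnt11, the Wnt receptor Fzd7 (−0.64) and Notch2 (−0.57) were the other negative members, and Dhh, a hedgehog ligand, the other positive one (0.62); Fzd7, Notch2 and Dhh were likewise named later. The calls on Tgfb2, Tgfbr2, Smad3, Skil, Hhip, Ptch1, Notch2 and Dhh were lost without A_1 (adjusted p from 0.051 to 0.224), and those on Tgfb2, Tgfbr2, Skil, Hhip, Ptch1, Fzd7 and Notch2 with the length correction (adjusted p from 0.0527 to 0.91). The negative counts of the 2 lists were 6 and 6 without A_1, and the positive ones of the Wnt, Notch and hedgehog list 4 with the length correction. Without A_2 the negative counts were 3 and 2, without B_3 4 and 5, and without the label block 1 and 2. Hey1, at 0.08 in A_1, lost its call without A_2, B_2 or B_3 (adjusted p from 0.0546 to 0.187) and without the label block (adjusted p = 0.0987). The call on Hes1 was lost without A_2, B_2 or B_3 (adjusted p from 0.0915 to 0.0994).

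Genes of vessels, matrix and the cytoskeleton passed in both directions. Angpt1 and Angpt2, ligands of the endothelial receptor TIE2, had opposite differences. At 12 h Angpt1 averaged 6.49 CPM without and 22 CPM with hCG, while at 4 h its averages were 0.905 and 0.418 CPM (difference 2.69 ± 0.50, adjusted p = 0.00182). Angpt2 was lowered by hCG at both times, by more at 12 h (−1.65 ± 0.29, adjusted p = 0.001), as was Thbs1, thrombospondin 1 (−1.60 ± 0.22, adjusted p = 0.00014). In the hypoxia and angiogenesis list 3 of 26 were positive and 4 negative (26.9% passing, against 14.1% of all genes). Beside Apln and Angpt1, Vegfb (0.58) was positive, and beside Angpt2, Thbs1 and Kdr, Epas1 (−0.64), which encodes HIF-2α; Vegfb and Epas1 were named after their values were seen. Kdr, a VEGF receptor, was the 1 of 7 endothelial markers that passed (−1.65 ± 0.46, adjusted p = 0.0219): it stood at 59.4, 70, 30.7 and 42.2 CPM with hCG at 4 h and at or under 4.48 CPM in the other siNC groups. The summed endothelial markers were 37.4 to 75.2 CPM with hCG at 4 h and 5.74 to 14.6 CPM in the other groups, while Pecam1 and Cdh5, which define endothelium, did not pass. The Kdr call was lost without A_1 (adjusted p = 0.186), without B_2 (adjusted p = 0.0587) and without the label block (adjusted p = 0.17). The calls on Vegfb and Epas1 were lost without A_1 (adjusted p from 0.103 to 0.198), and that on Vegfb (adjusted p = 0.386) with the length correction. Without A_1 the hypoxia list had 2 positive and 2 negative members.

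Among 25 matrix proteases and inhibitors, 3 were positive and 4 negative (28% passing, against 14.1% of all genes). The inhibitors Timp1 (1.25 ± 0.26, adjusted p = 0.00409) and Timp3 (−1.53 ± 0.14, adjusted p = 1.24e-06) had opposite differences, and Plau, urokinase, was raised less at 12 h (2.30 and 1.21; difference −1.09 ± 0.26, adjusted p = 0.00914). Adamts9 and Mmp16 (−0.96) were also negative and Ctsl and Mmp2 (0.80) positive, with Mmp2 and Mmp16 named after their values were seen. Of 25 actin, SRF and YAP genes 7 were negative and 1 positive, among them the tropomyosin genes Tpm1 (−0.65 ± 0.10) and Tpm4 (−0.64 ± 0.14). Thbs1, Acta2 (−0.60), Ccn2 (−0.90), Amotl2 (−1.004) and Ajuba (−0.56) were the other negative members and Tagln2 (0.55) the positive one; of these all but Thbs1 were named after their values were seen. Leaving out 1 label left 0 to 6 positive and 3 to 5 negative members of the protease list and 0 to 1 positive and 4 to 8 negative of the actin list. Ctsl, Mmp16, Acta2, Ccn2, Amotl2 and Tagln2 missed the threshold without A_1 (adjusted p from 0.0516 to 0.21). Without A_1 and with the length correction the protease list had 6 and 6 positive members. Of 21 NRF2 and heat shock genes 4 were negative: Txnrd1 (−1.07 ± 0.20), Gclc (−1.16 ± 0.22) and Gclm (−0.62 ± 0.18), which serve thioredoxin and glutathione, and the haem oxygenase gene Hmox1 (−1.01 ± 0.32). That is 19% of the list, against 14.1% of all genes. No heat shock gene passed, and the Hmox1 and Gclm calls were lost without the label block and when any of A_2, B_2 or B_3 was left out, that of Hmox1 also without A_1 and that of Gclm with the length correction. Without 1 label the list had 0 positive and 2 to 3 negative members. In the clock list 27.3% passed, against 14.1% of all genes. Clock genes gave 2 positive members of 22, Rora (1.87 ± 0.19, adjusted p = 6.11e-06) and Npas2 (2.20 ± 0.44, adjusted p = 0.00297), which act on the positive limb of the clock. Of the 4 negative ones, Rorb had a difference of −1.65 ± 0.36 and Per1, a repressor of the clock, one of −0.98 ± 0.22. Nr1d2 (−0.59) and the kinase gene Csnk1e (−0.56) were the other negative ones, named after their values were seen, and leaving out 1 label left 2 to 3 positive and 1 to 3 negative clock genes. The call on Csnk1e (adjusted p = 0.0586) was lost without A_1, and that on Nr1d2 (adjusted p = 0.104) with the length correction.

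**Figure D5:**
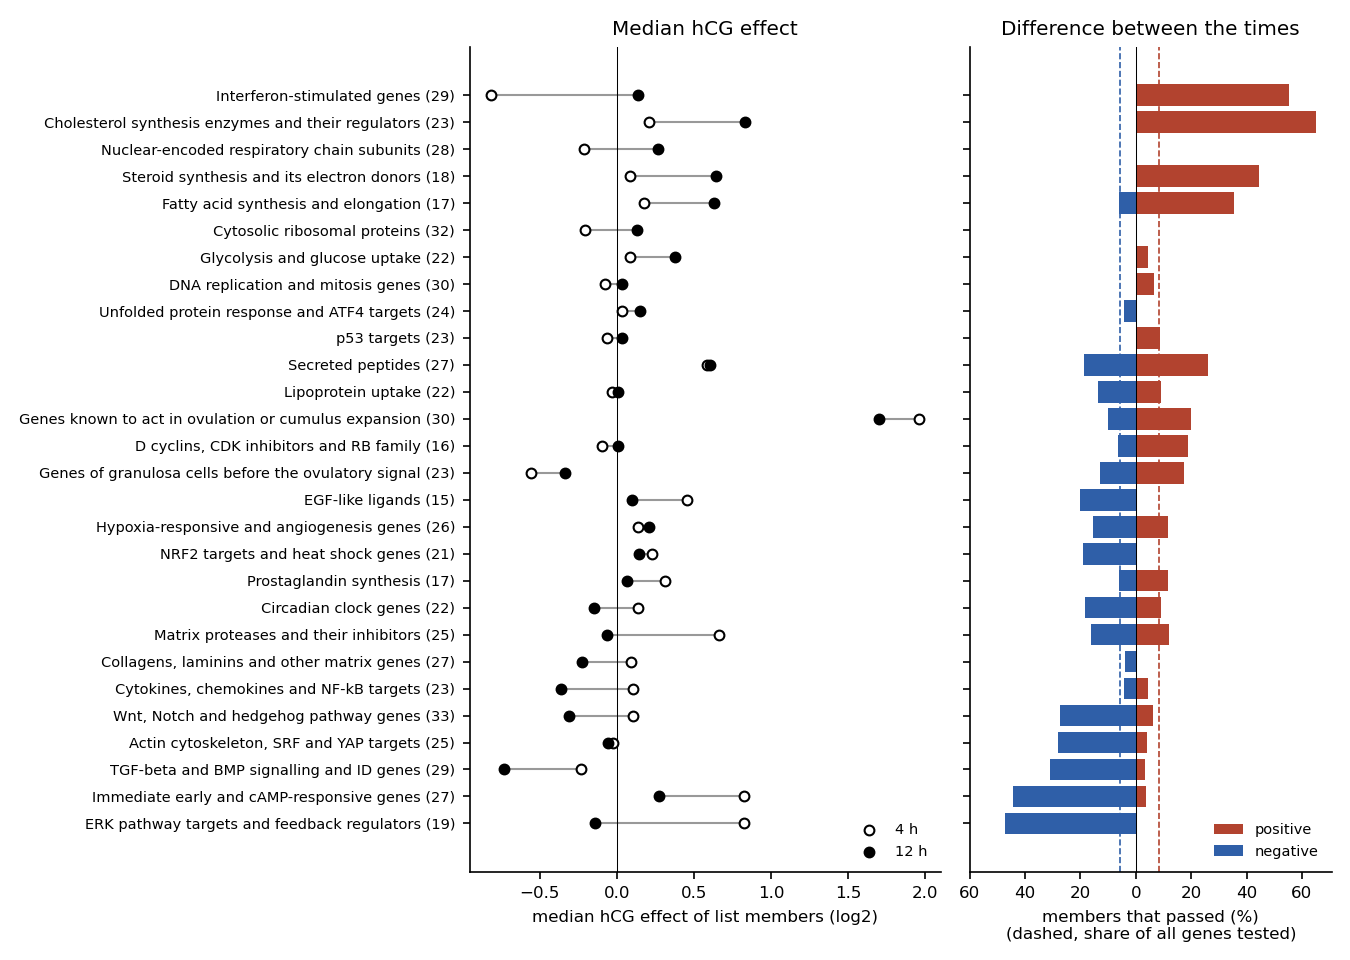
Left, median hCG effect (log2) of the members of 28 gene lists at 4 h (open) and 12 h (filled), with the number of genes tested in brackets; right, share of members with a positive or negative difference past the threshold, dashed lines being the shares of all genes tested (8.36% and 5.75%). Cholesterol synthesis (15 of 23) and interferon-stimulated genes (16 of 29) lead the positive side, ERK targets and feedback regulators (9 of 19) the negative side.

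The remaining lists held few calls. Apart from the cyclin list (25%) and the cell type markers, 0% to 8.7% of their members passed, against 14.1% of all genes. None of 28 nuclear respiratory chain genes and none of 32 ribosomal protein genes passed in edgeR or DESeq2, but with the length correction Sdhb, a subunit of complex II, was positive (0.38, adjusted p = 0.0131) and the ribosomal protein gene Rps6 negative (−0.37, adjusted p = 0.0204). Over all labels Sdhb stood at 0.74 ± 0.28 and Rps6 at 0.01 ± 0.25, and the medians of the 2 lists, 0.49 and 0.36, became 0.03 and −0.18 without A_1. Single members passed in glycolysis (Pfkm, 0.72), the unfolded protein response (Atf3) and collagens and matrix (Nid2, −1.11). In the cytokine and NF-κB list, Hp was positive and Tnfaip3 negative (−1.90). Sesn1 (0.53) and Aen (0.35) passed among 23 p53 targets, and Rrm2 (0.77) and Ccnb2 (0.74) among 30 replication and mitosis genes. Of 16 cyclins, CDK inhibitors and RB family genes 3 were positive, Cdkn1b (0.78), Cdkn2c (0.48) and E2f1 (0.46), and Cdk6 was negative (−0.60). The calls on Atf3, Tnfaip3, Sesn1, Rrm2, Ccnb2, Cdk6, Cdkn2c and E2f1 were lost without A_1 (adjusted p from 0.0859 to 0.336), and those on Ccnb2, Cdk6 and Cdkn2c with the length correction (adjusted p from 0.0699 to 0.715). Without A_1 the replication and mitosis list had 0 positive and 3 negative members, Mcm5 (−0.44), Mcm7 (−0.35) and Pcna (−0.64), all replication genes, and with the length correction 1 and 2. In the matrix list Col5a1 (0.58), Col6a1 (0.60) and Col18a1 (1.60) were positive without A_1, beside 1 negative member, and 2 were positive with the length correction. Glycolysis had 3 positive members without A_1 and 2 positive and 1 negative with the correction. For p53 targets the positive and negative counts were 1 and 1 without A_1 and 2 and 1 with the correction. The cyclin list had 1 positive member without A_1 and 2 with the correction, and no negative member in either. The genes of these lists other than Hp were named after their values were seen. Among the markers, Foxl2, Fshr and Inhba passed for granulosa cells, Lhcgr, Ptch1 and Enpep for theca, Acta2 for smooth muscle and Nr2f2 for stroma. Of these the calls on Ptch1, Acta2 and Nr2f2 (adjusted p = 0.14) were lost without A_1 and those on Ptch1 and Nr2f2 (adjusted p = 0.0516) with the length correction, and 1 oocyte marker was negative in both settings.

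The 8 siNTS libraries give the change from 4 h to 12 h with hCG in cultures given the other siRNA. For these 24 genes of largest difference, that change had the same sign in siNTS and siNC cells in 23, the exception being Neb. The share of all tested genes with the same sign was not computed, so this count has no background to compare with. The siNTS and siNC libraries also share labels and 1 fit. In siNTS cells the change did not pass for Ramp1, Fabp4, Adamts9 or Neb (adjusted p from 0.268 to 0.557), and it passed for the rest. For Apln it was 4.94 in siNTS and 4.99 in siNC cells, and for Pnoc −1.86 and −2.17. The median gap between the 2 was 0.26, and the largest, 1.28, was that of Wnt11. No library of the series came from siNTS cells without hCG, so the difference itself could not be measured in siNTS cells.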

How the data were processed

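Estimated counts per Entrez gene were deposited by the authors, unscaled, for 24 stranded mRNA libraries sequenced paired-end (151 cycles per end, 2 lanes), per the labels' protocols. Per the submitters' processing notes, the build was GRCm39 and the tools included Salmon 1.4.0 and R 4.1.0 with edgeR and limma; their roles are not given. Salmon shares reads among near-identical copies by estimate, so such genes can trade counts. Estimated counts were rounded. edgeR 4.0.16 (R 4.3.3) kept 15405 genes (filterByExpr, 6 groups; 99.97% of counts). All 24 libraries entered 1 quasi-likelihood fit with TMM scaling, group and the replicate label as a block, with Benjamini-Hochberg adjustment over all genes and a threshold of 0.05. Standard errors are the log2 change over the root of F; log2 CPM per label used a prior count of 2.

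The block was used because titles give each label a culture date. As a check, deviations from group means of same-label libraries correlated above 0.1 in 20 of 24 pairs, with a lowest of −0.69 in A_1. In 24 pairs of libraries within siNC groups, no 2 agreed within sampling noise (chi-square over its degrees of freedom, 22.7 to 446).

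Genes named were up to 12 per direction with the largest differences that passed, had 1 sign in all labels, reached a mean of 5 CPM in a siNC group and had no predicted-gene or clone symbol; in each list the text describes, at most 4 passing members by adjusted p and at most 3 others by mean CPM; and Nts, Star, Pgr, Ptgs2, Areg, Ereg, Cyp19a1, Lhcgr, Cxcr4, Adcyap1, Cyp11a1, Ptgfr and Apln. Other passing list members were named after their values were seen, and some genes are not reported here. Members and lists were chosen with earlier results of these data known. Genome coordinates are of GRCm38.p6, used for promoters only. The 12 deposited tables of the authors' own comparisons were not used. The fit was tested on simulated data. Alternatives were no block, a block within each time, a culture date block, RLE scaling, no filter, a mean of at least 1 CPM, DESeq2 1.42.0, limma-voom 3.58.1, only the siNC libraries, a least difference of 1.5-fold, leaving out each label, and a length correction.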

Additional observations from a re-analysis of the deposited data

Results flagged for a closer look

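The difference between the times is itself a difference between 2 effects of hCG, and it passed in 1288 genes in the positive and 886 in the negative direction. Among the 202 genes named, 36 had effects of opposite sign at 4 h and 12 h under every label. The rule used the sign alone, with no least size, so some single effects were close to none. Myc stood at 0.0004 in A_2 at 4 h, and Tspo in B_2 at −0.042 at 4 h and 0.042 at 12 h. Lower with hCG at 4 h and higher at 12 h were Plin5 (3.19), Fshr (1.17), Fads2 (0.871), Fads1 (0.66), Acss2 (1.07), Nr1h3 (1.23), Bst2 (1.18), Ifi35 (1.12), Psmb8 (1.51), Angpt1 (2.69), Nppc (2.1), Ramp2 (0.947), Tspo (1.15), Scap (0.658), Vegfb (0.578), Cdkn2c (0.476) and Oasl1 (1.52), with the difference (log2) in brackets. Higher at 4 h and lower at 12 h were Pnoc (−3.54), Adgrv1 (−3.1), Adamts9 (−2.76), Spry2 (−2.19), Phlda1 (−1.7), Dusp10 (−1.34), Egr2 (−1.49), Cited2 (−0.699), Myc (−0.819), Ptger3 (−2.29), Inhba (−2.05), Jag1 (−2.43), Timp3 (−1.53), Gclm (−0.623), Hmox1 (−1.01), Egr1 (−0.681), Fosb (−0.938), Csnk1e (−0.558) and Grem1 (−1.1). All 36 passed the test of the difference, but this adds no support. Most named genes were chosen because they passed (177 of 202), and opposite effects under every label give every label's difference the same sign.

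In 12 of the 202 genes, 1 label's difference lay far from the other 3. The limit was Dixon's critical value, which is set so that about 1 in 20 groups of normally distributed values pass it by chance. In 10 genes the outlying label was A_1: Nts (4.08), Erbb2 (−1.02), Por (−0.553), Hmgcs1 (−0.357), Plau (−2.19), Enpep (−3.01), Scd1 (0.39), Cdkn1b (1.36), Npr2 (−1.06) and Col6a1 (−1.4). For Nts the other labels lay between −0.79 and −0.27, for Hmgcs1 between 0.71 and 0.74, for Npr2 between 0.38 and 0.65 and for Col6a1 between 0.45 and 0.76. The A_1 libraries also stood apart by transcript length, and the part of that in these values was not tested. In B_2, Plin5 stood at 2.97 against 3.14 to 3.17, and Thbd at −2.37 against −3.03 to −2.99.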

How the results depend on the processing

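The counts of positive and negative genes were 362 and 224 without the replicate block, 675 and 535 with only the 16 siNC libraries, and 138 and 135 for a difference of at least 1.5-fold. DESeq2 gave 1547 and 1346. Leaving out 1 label gave 253 to 949 positive and 232 to 846 negative genes, the lowest without A_2 in both directions and the highest without B_2. Under the other alternatives both counts stayed within 1.5 times those reported, and the length correction shared 1735 of the 2174 genes. RLE size factors moved the split of calls to 1126 positive and 953 negative. In every setting 98 positive and 81 negative genes passed, and 181 and 136 when the fold minimum is set aside. The cause of these changes was not tested. Fits without 1 label also held fewer libraries, and the part of that was not tested either.

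Among the named genes, Ptgs2 (−0.0413) and Gja1 (0.0078) changed sign without the replicate block, and Errfi1 (−0.0047) and Gja1 (0.0139) with the length correction. Rps6 was negative with the culture date block (−0.002606), RLE size factors (−0.008898), DESeq2 (−0.009772) and the length correction (−0.37). None of these passed over all labels, and Rps6 did with the length correction. Leaving out 1 label, the difference ranged from −0.30 to 1.44 for Nts, −0.17 to 0.63 for Ptgs2, −0.0414 to 0.35 for Ereg, −0.00717 to 0.0691 for Errfi1, −0.25 to 0.12 for Gja1, −0.14 to 0.52 for Npr2, −0.37 to 0.17 for Rps6, −0.13 to 0.58 for Col5a1 and −0.17 to 0.60 for Col6a1. The other named genes kept their sign in every alternative where they had a value. Of 177 named genes that passed, 70 did so without the replicate block, 130 with only the siNC libraries, 154 with the length correction and 79 to 138 with 1 label left out. With 4 libraries a group, differences of genes with few counts, such as Nts in control cells at 12 h, are not detectable unless large.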
